A study of Mus musculus with 9 samples.

Results

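The 6 genes described here act in the fusion of osteoclast precursors and were followed across the 9 libraries of the series. They are the multi-pass fusion receptors Dcstamp and Ocstamp, the tetraspanins Cd9 and Cd81, the receptor ligand Cd47, and Sh3pxd2a, which encodes the adaptor Tks5. They were chosen by gene symbol for these roles, and make up 6 of the 56691 genes in the deposited table. RNA came from RAW264.7 cells, a mouse macrophage line that forms osteoclast-like cells when given RANKL, the cytokine that drives osteoclast differentiation. The 3 groups were untreated cells (control), cells given RANKL, and cells given RANKL together with uridine (RANKL + UD), with 3 libraries each and RNA collected on day 3 of culture. All groups are the same cell line, so the cultures model osteoclast formation without the other cells of bone. RANKL was given at 50 ng/mL in both groups that received it. The UD dose of these libraries is not given in the sources used here. No group received UD without RANKL, so a change under RANKL + UD cannot be divided into an effect on the response to RANKL and an effect of UD alone.

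Osteoclasts, the cells that resorb bone, become multinucleated when mononuclear precursors of the macrophage lineage fuse. Dcstamp and Ocstamp are surface proteins that precursors need to fuse, and both are induced by the RANKL-driven transcription factor NFATc1. Tetraspanins organise receptors and adhesion proteins in the membrane, CD47 binds the receptor SIRPα on neighbouring macrophages, and Tks5 builds the actin-rich podosomes and invasive protrusions through which precursors meet.

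Levels are FPKM, read counts adjusted for the exonic length of a gene and the size of its library. Totals were 15951800 to 19746862 counts per library. Changes are log2 fold changes with their standard errors (SE) from edgeR's quasi-likelihood test on the counts over 11995 genes, and a gene was called at a Benjamini-Hochberg adjusted p under 0.05. The summed FPKM of 6 osteoclast marker genes was 13.1 to 15.4 in control, 1959 to 2138 in RANKL and 1336 to 1372 in RANKL + UD, with Calcr at 0 in every control library. The summed FPKM of 6 macrophage markers was 9344 to 9934, 2494 to 2741 and 2176 to 2309 in the same order. The summed FPKM of 5 markers of osteoblasts, T cells and endothelium was at most 0.44, and Cd3e was at 0 in every library. Of the 5 osteoclast markers tested, 5 rose with RANKL, where 27.3% of all tested genes were called higher and 30.2% lower. With UD 4 fell and 1 rose, namely Car2, the gene of a carbonic anhydrase (log2 fold change 0.29, SE 0.055). In that comparison, RANKL + UD against RANKL, 18.6% of all tested genes were called higher and 20.2% lower. Itgb3 passed the filter on low values through the RANKL libraries alone. Oscar and Acp5, at 0.06 and 0.91 FPKM in control, needed the groups given RANKL to pass. The rises of these genes with RANKL depend on that choice, and so does the fall of Itgb3 with UD. The counts of osteoclast markers include these genes. Of the 6 macrophage markers, 5 fell and Cd68 rose with RANKL (0.60, SE 0.057), and with UD 5 fell and Adgre1 rose (0.22, SE 0.069). These counts stand beside the same shares of all tested genes. The part of these markers in the results on the fusion genes was not tested. In bulk RNA, fewer cells of a type and less RNA per cell cannot be told apart.

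With RANKL, Dcstamp, Ocstamp, Cd9 and Sh3pxd2a rose, Cd81 fell, and Cd47 was not called. With UD added to RANKL, Dcstamp, Ocstamp, Cd9 and Cd47 fell, and Cd81 and Sh3pxd2a were not called. Compared with untreated cells, RANKL + UD cells had higher Dcstamp, Ocstamp and Sh3pxd2a and lower Cd81 and Cd47, and Cd9 was not called. All 6 genes had an FPKM of at least 1 in all 9 libraries, so none entered the test through a high group alone.

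These counts were read against all tested genes. In RANKL against control, 4 of the 6 genes were higher and 1 was lower, where 27.3% of all tested genes were called higher and 30.2% lower. The libraries of these groups did not overlap for 6 of the 6 genes and for 61.7% of all tested genes. In RANKL + UD against RANKL, edgeR called 0 genes of the 6 higher and 4 lower, where 18.6% of all tested genes were called higher and 20.2% lower. At an unadjusted p under 0.05 the number higher was also 0, and DESeq2 and limma called 0 higher too. The libraries did not overlap for 4 of the 6 genes and for 51.7% of all tested genes. In RANKL + UD against control, 3 of the 6 were higher and 2 lower, where 26.7% of all tested genes were higher and 27.3% lower. The libraries did not overlap for 5 of the 6 and for 59.9% of all. The background depended on scaling, since with total counts in place of TMM factors 66.2% of the calls in RANKL + UD against RANKL were higher, compared with 48.0%, and 36.9% compared with 47.5% in RANKL against control. The comparisons share libraries, so their values are set side by side and are not independent of each other.

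**Figure D1:**
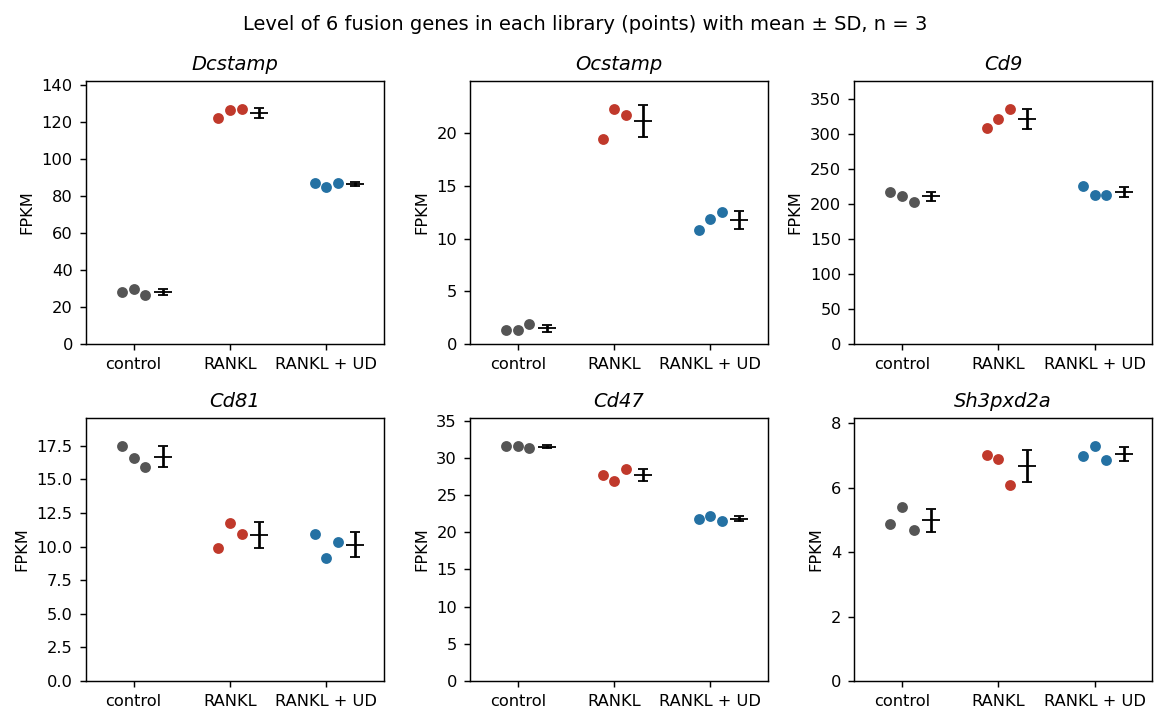
FPKM of the 6 fusion genes (vertical axis of each panel, from 0) in the control, RANKL and RANKL + UD libraries, with a point for each library and bars for mean ± SD (n = 3). Dcstamp, Ocstamp and Cd9 were highest in the RANKL libraries, Cd47 had means of 31.5, 27.7 and 21.8 FPKM in the same order, and the RANKL and RANKL + UD points overlap for Cd81 and Sh3pxd2a.

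Dcstamp, the dendritic cell-specific transmembrane protein without which precursors stay mononuclear, is listed on chromosome 15 from 39609326 to 39624334 on the plus strand (ENSMUSG00000022303). Its FPKM was 28.1, 29.6 and 26.4 in the control libraries, 121.8, 126.1 and 126.7 in the RANKL libraries, and 86.96, 85.03 and 86.69 in the RANKL + UD libraries. All RANKL libraries were above all RANKL + UD libraries, and these were above all control libraries. Dcstamp was 4.73-fold higher with RANKL (log2 fold change 2.24, SE 0.051, edgeR adjusted p = 6.00e-19), a larger rise than that of 97.9% of all tested genes. With UD it fell by 34.9%, a log2 fold change of -0.62 relative to RANKL (SE 0.048, 95% interval -0.72 to -0.52, edgeR adjusted p = 2.44e-09). It was 3.08-fold above control in RANKL + UD (log2 fold change 1.62, SE 0.051). Counts behind these values were 1121 or more in every library.

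Ocstamp, the osteoclast stimulatory transmembrane protein that resembles Dcstamp in structure, is listed on chromosome 2 from 165235680 to 165242325 on the minus strand (ENSMUSG00000027670). Its FPKM was 1.30, 1.33 and 1.89 in control, 19.4, 22.3 and 21.7 in RANKL, and 10.8, 11.9 and 12.6 in RANKL + UD. The 3 groups did not overlap and stood in the same order as for Dcstamp. Ocstamp was 15.0-fold higher with RANKL (log2 fold change 3.91, SE 0.11, edgeR adjusted p = 1.97e-17), and 7.88-fold above control in RANKL + UD (2.98, SE 0.11). With UD it fell by 47.6%, a log2 fold change of -0.93 relative to RANKL (SE 0.087, 95% interval -1.11 to -0.75, edgeR adjusted p = 3.75e-08). This was a larger fall than that of all but 2.94% of the tested genes. The control values rest on 80 to 110 counts per library, with a counting error of 11.2% at the lowest count. Neither receptor gene overlaps another gene of the table.

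The fusion receptors did not move by the same amount. Within a library, the log2 ratio of Dcstamp to Ocstamp, computed on FPKM + 1, was 3.66, 3.71 and 3.24 in control, 2.59, 2.45 and 2.49 in RANKL, and 2.89, 2.74 and 2.69 in RANKL + UD. No groups overlapped, and RANKL + UD lay between the others. The mean ratio changed by -1.03 from control to RANKL and by 0.26 from RANKL to RANKL + UD. The two-sided exact permutation p was 0.1 for each pair of groups, the smallest that 3 against 3 libraries allow, and 0.00357 over the 3 groups, the smallest that 280 divisions allow. The control ratio depends on the pseudocount because Ocstamp was low there, and with a pseudocount of 0.1 the difference between RANKL and control was -1.59.

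**Figure D2:**
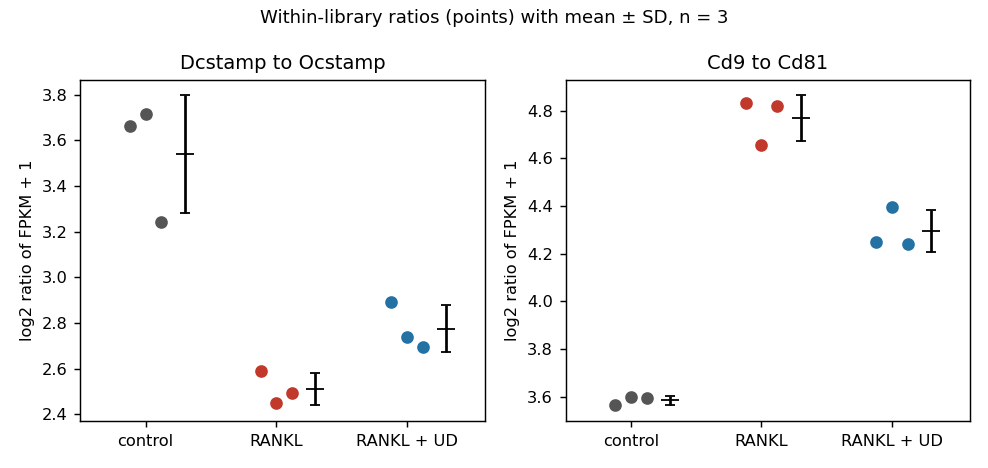
Log2 ratio of FPKM + 1 (vertical axes, not starting at 0) of Dcstamp to Ocstamp and of Cd9 to Cd81 within each library, with a point for each library and bars for mean ± SD (n = 3). RANKL + UD lay between control and RANKL for both ratios, with means of 3.54, 2.51 and 2.78 for Dcstamp to Ocstamp and of 3.59, 4.77 and 4.30 for Cd9 to Cd81 in control, RANKL and RANKL + UD.

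Cd9 and Cd81 are closely related tetraspanins that sit in the same membrane complexes and are also known from sperm-egg fusion. In the deposited table Cd9 is listed on chromosome 6 from 125437229 to 125471754 on the minus strand (ENSMUSG00000030342) and Cd81 on chromosome 7 from 142606476 to 142621671 on the plus strand (ENSMUSG00000037706). The bases before their starts are shown, as given by RefSeq on GRCm38.p6. They run from 250 bases before the start up to the first base in an annotated exon of the gene. The stretches are chr6:125494792-125495010 on the minus strand for Cd9 and chr7:143052500-143052738 on the plus strand for Cd81, written 5′ to 3′ in the direction of the gene. The deposited coordinates of these genes differ from those of GRCm38, so they cannot be set against the positions of the stretches. The whole Cd9 stretch also lies in an annotated exon of Gm26728, a gene on the opposite strand. Capitals mark GGAAA, the core bound by NFAT factors.
Cd9: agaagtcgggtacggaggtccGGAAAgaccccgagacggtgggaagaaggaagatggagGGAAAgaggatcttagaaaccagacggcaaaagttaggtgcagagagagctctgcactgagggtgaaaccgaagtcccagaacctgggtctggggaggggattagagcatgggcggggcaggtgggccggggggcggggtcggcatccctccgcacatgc
Cd81: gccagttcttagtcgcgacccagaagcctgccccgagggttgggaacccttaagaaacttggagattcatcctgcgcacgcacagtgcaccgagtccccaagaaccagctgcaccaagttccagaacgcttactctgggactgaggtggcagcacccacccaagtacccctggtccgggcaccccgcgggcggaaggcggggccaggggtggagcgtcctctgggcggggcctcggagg
Both strands of the whole 250 bases were searched for GGAAA, for TGANTCA, the AP-1 motif, and for GAGGAA, the core bound by PU.1. GGAAA was found 2 times before Cd9, at positions -229 and -191 from the start, and 0 times before Cd81, and it occurs in 55.6% of 32851 such windows. TGANTCA and GAGGAA had 0 matches in both, and occur in 6.75% and 23.3% of the windows. Cd47 was the third of the 6 genes in the RefSeq promoter table, which lists 2 windows for it. Only the first window was searched, with 0 matches to any of these motifs. A match is a run of letters, and binding was not measured here. Whether these matches have a part in the levels of the genes was not tested.

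Cd9 had the highest level of the 6 genes in every group. Its FPKM was 217.6, 211.9 and 203.7 in control, 308.4, 321.4 and 335.8 in RANKL, and 226.5, 212.8 and 213.9 in RANKL + UD. The RANKL libraries stood above all others, while the control and RANKL + UD libraries overlapped. Cd9 rose 1.62-fold with RANKL (log2 fold change 0.70, SE 0.049, edgeR adjusted p = 8.24e-11) and fell by 0.65 on the log2 scale with UD (SE 0.049, 95% interval -0.75 to -0.55, edgeR adjusted p = 1.82e-09). In RANKL + UD against control the difference was 0.046 on the log2 scale, with a 95% interval of -0.056 to 0.15 (edgeR adjusted p = 0.453). Gm28809 and Gm26728 overlap Cd9 on the opposite strand, with mean levels of 2.16 and 0.012 FPKM. The libraries mark strand, but whether the counting used it is not given in the sources used here.

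Cd81 went the other way with RANKL. Its FPKM was 17.5, 16.6 and 15.9 in control, 9.87, 11.8 and 10.9 in RANKL, and 10.95, 9.14 and 10.4 in RANKL + UD. Every library given RANKL was below every control library, and the RANKL libraries overlapped with those of RANKL + UD. Cd81 fell by 0.53 on the log2 scale with RANKL (SE 0.086, edgeR adjusted p = 1.92e-05), and lay 0.71 lower in RANKL + UD than in control (log2 fold change -0.71, SE 0.087, edgeR adjusted p = 5.16e-07). Between RANKL + UD and RANKL the difference was -0.18 with a 95% interval of -0.37 to 0.004 (edgeR adjusted p = 0.116), so a fall of up to 0.37 is within the error of these libraries. The value was -0.11 without RANKL + UD replicate 2, -0.12 without RANKL replicate 2, -0.095 with total counts and -0.089 with limma on log2(FPKM + 1). It was larger without RANKL replicate 1 (-0.24, edgeR adjusted p = 0.0518) and -0.19 with RLE size factors and with DESeq2. Over 18 alternatives it ranged from -0.24 to -0.089 and was not called in any. The gene R74862 overlaps Cd81 on the opposite strand at a mean of 0.081 FPKM.

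The ratio of Cd9 to Cd81 within a library was 12.4, 12.8 and 12.8 in control, 31.2, 27.3 and 30.7 in RANKL, and 20.7, 23.3 and 20.6 in RANKL + UD, as a ratio of FPKM values. RANKL + UD libraries lay between the other groups with no overlap. On the log2 scale of FPKM + 1 the ratio changed by 1.18 from control to RANKL and by -0.47 from RANKL to RANKL + UD, which left it 0.71 above control. The two-sided exact permutation p was 0.1 for each pair, the smallest possible, and 0.00357 over the 3 groups, also the smallest possible.

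Other tetraspanins were set beside these. Of 29 further tetraspanin genes, 12 were expressed highly enough to be tested. In RANKL + UD against RANKL 1 was higher and 9 were lower, with a median log2 fold change of -0.40, compared with 18.6% higher, 20.2% lower and a median of 0.005 over all tested genes. In RANKL against control 5 were higher and 3 lower, beside 27.3% and 30.2% of all tested genes, with a median of 0.06, which was -0.02 when total counts replaced TMM scaling. The largest change was in Tspan13, which fell by 2.45 on the log2 scale with RANKL (SE 0.14) and by a further 0.94 with UD (SE 0.18), from 11.4 to 1.97 and 1.10 FPKM. Cd82 and Cd63, a lysosome-associated tetraspanin, rose with RANKL (1.21, SE 0.063, and 0.81, SE 0.064) and fell with UD (-0.34, SE 0.060, and -0.40, SE 0.064). Cd37, a leukocyte tetraspanin, changed by 0.31 (SE 0.074) with RANKL and by -0.69 (SE 0.076) with UD. Cd53, the only other tetraspanin near the level of Cd9, was at 298.6 ± 0.49, 286.6 ± 1.9 and 212.4 ± 5.8 FPKM (SD, n = 3) in control, RANKL and RANKL + UD, and fell by 0.52 with UD (SE 0.044). Tspan3 was the single member that rose with UD (0.36, SE 0.063). Cd53 and Tspan3 were named after their values were seen.

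Cd9 made up 29.8% ± 0.69 of the summed FPKM of all 31 tetraspanin genes in control, 38.2% ± 0.51 in RANKL and 34.3% ± 0.43 in RANKL + UD (SD, n = 3). The sum itself was 708 ± 7.0, 843 ± 25 and 634 ± 14 FPKM. The 3 groups did not overlap in the share or in the sum, whereas the Cd9 level itself overlapped between control and RANKL + UD.

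**Figure D3:**
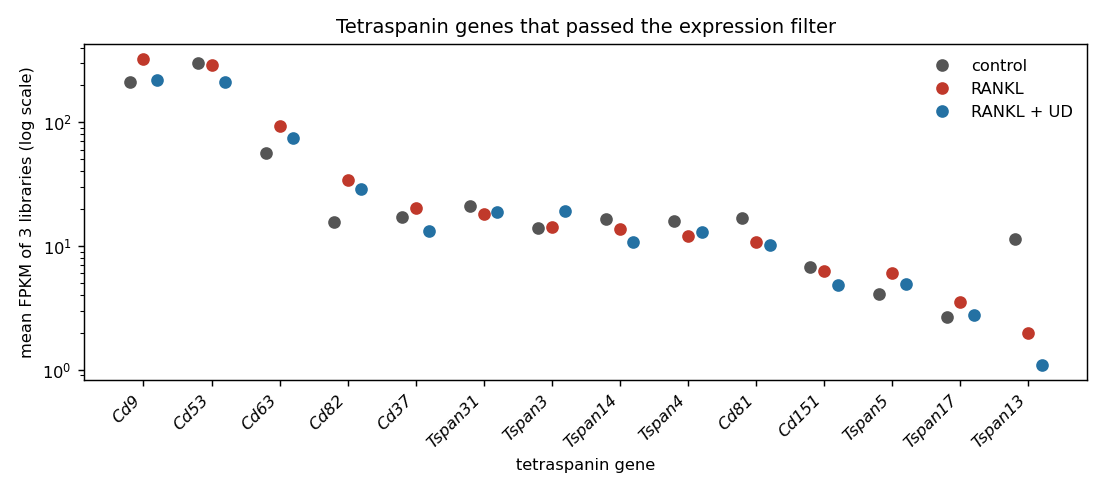
Mean FPKM of 3 libraries (vertical log axis) for the 14 tetraspanin genes that were tested, in control, RANKL and RANKL + UD, ordered by level. Cd9 and Cd53 lie far above the rest, and Tspan13 shows the widest gap between control (11.4 FPKM) and the groups given RANKL (1.97 and 1.10 FPKM).

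Cd47 is the ligand of SIRPα and is known as a signal that restrains engulfment by macrophages and as a partner in macrophage fusion. It is listed on chromosome 16 from 49620896 to 49735373 on the plus strand (ENSMUSG00000055447). Its FPKM was 31.6, 31.6 and 31.3 in control, 27.7, 26.9 and 28.6 in RANKL, and 21.8, 22.1 and 21.5 in RANKL + UD. The 3 groups did not overlap, and RANKL + UD was the lowest. With UD, Cd47 fell by 0.43 on the log2 scale relative to RANKL (SE 0.047, 95% interval -0.53 to -0.33, edgeR adjusted p = 2.76e-07) and by 0.53 relative to control (SE 0.047, edgeR adjusted p = 3.71e-09). RANKL against control gave -0.10 (SE 0.046, edgeR adjusted p = 0.0771) and was not called. This value depended on how libraries were scaled, as the TMM factors were 0.959 to 0.963 in RANKL and 1.01 to 1.03 elsewhere. With total counts the change was -0.18 (edgeR adjusted p = 0.00169), and without RANKL replicate 3 it was -0.12 (edgeR adjusted p = 0.0309), within a range of 0.00169 to 0.308 for the adjusted p over 18 alternatives. An unnamed gene (ENSMUSG00000120198) overlaps Cd47 on the opposite strand at a mean of 0.216 FPKM.

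Sirpa, which encodes the receptor of CD47, was at 162.1 ± 9.1, 150.6 ± 3.8 and 131.8 ± 1.6 FPKM (SD, n = 3) in control, RANKL and RANKL + UD. Its log2 fold change was -0.02 (SE 0.047) with RANKL, which was not called, and it fell by 0.28 with UD (SE 0.047, edgeR adjusted p = 7.31e-05). Both genes of this pair were thus lower with UD and neither was called with RANKL. Sirpa was singled out after its values were seen.

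Sh3pxd2a encodes Tks5, a scaffold that is phosphorylated by the kinase Src and localises to podosomes. It is listed on chromosome 19 from 47248613 to 47452840 on the minus strand (ENSMUSG00000053617). Its FPKM was 4.89, 5.39 and 4.68 in control, 7.03, 6.90 and 6.09 in RANKL, and 7.00, 7.30 and 6.85 in RANKL + UD. Both groups given RANKL were above control, and they overlapped each other. Sh3pxd2a was 1.42-fold higher with RANKL (log2 fold change 0.51, SE 0.067, edgeR adjusted p = 1.44e-06) and 1.41-fold higher in RANKL + UD than in control (0.50, SE 0.067, edgeR adjusted p = 2.00e-06). RANKL + UD against RANKL gave -0.01 with a 95% interval of -0.14 to 0.13 (edgeR adjusted p = 0.942), so that a change of more than 0.14 in either direction lies outside the interval. Its sign turned under other scaling (0.078 with total counts). The microRNA gene Mir6995 lies inside Sh3pxd2a on the same strand and was at 0 in every library.

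**Figure D4:**
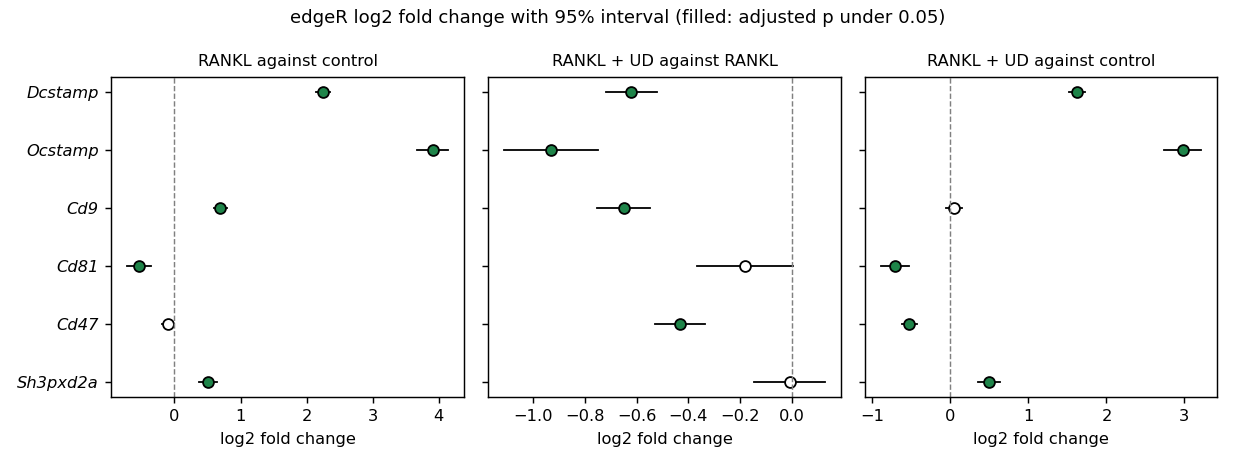
Log2 fold change from edgeR (horizontal axes, with a different range in each panel) of the 6 fusion genes in RANKL against control, RANKL + UD against RANKL and RANKL + UD against control, with 95% intervals; filled points have an adjusted p under 0.05. In RANKL + UD against RANKL the filled points are Ocstamp (-0.93), Cd9 (-0.65), Dcstamp (-0.62) and Cd47 (-0.43).

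The order of the levels changed between groups. In control it was Cd9, Cd47, Dcstamp, Cd81, Sh3pxd2a and Ocstamp from high to low, with no overlap of libraries between neighbours. In RANKL, Dcstamp took the second place and Ocstamp the fourth, giving Cd9, Dcstamp, Cd47, Ocstamp, Cd81 and Sh3pxd2a, again with no overlap between neighbours. In RANKL + UD the order of the means was the same, but Ocstamp (11.8 ± 0.86 FPKM) and Cd81 (10.2 ± 0.92 FPKM) overlapped (SD, n = 3).

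Further genes of cell fusion were read as lists. Of 12 fusion ligands, receptors and adhesion molecules 9 were tested, of which 1 was higher and 6 were lower in RANKL + UD against RANKL, beside 18.6% and 20.2% of all tested genes, with a median of -0.28 on the log2 scale. In RANKL against control 2 were higher and 6 lower, beside 27.3% and 30.2% of all. Cd200, a surface ligand, had 0 counts in every control library and 2.81 ± 0.22 FPKM in RANKL (SD, n = 3), at least 58.9-fold higher when control is set to a floor of 3 counts per library. In RANKL + UD it was at 0.55 ± 0.25 FPKM, a log2 fold change of -2.42 relative to RANKL (SE 0.25). Cd200 passed the filter on low values through the RANKL libraries alone, so its differences from RANKL depend on that choice and are given as a description. The counts and the median of this list include Cd200, and depend on that choice to this extent. Its receptor gene Cd200r1 was at 17.5, 14.6 and 7.28 FPKM in control, RANKL and RANKL + UD, a fall of 1.09 with UD on the log2 scale (SE 0.074). Cd36, a scavenger receptor, and Trem2, a receptor of the macrophage lineage that takes part in osteoclast fusion, were lower with RANKL (log2 fold changes -0.93, SE 0.053, and -0.72, SE 0.063). The chemokine gene Ccl2 was the single one that rose with UD (0.98, SE 0.13), while 2 were called higher when total counts replaced TMM scaling. Of all tested genes, 3348 were then called higher, compared with 2233 with TMM.

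Of 18 proteases, adaptors and membrane proteins linked to fusion, 14 were tested, and 1 rose, 6 fell and 7 were not called in RANKL + UD against RANKL (median -0.19), where 18.6% of all tested genes were higher and 20.2% lower. In RANKL against control 6 were higher and 5 lower, where 27.3% and 30.2% of all were called. Total counts gave 3 higher and 5 lower in this list. Of all tested genes, that scaling called 2585 higher and 4415 lower, compared with 3278 and 3628 with TMM. Src, the kinase that acts on Tks5, rose by 6.02 on the log2 scale with RANKL (SE 0.11), from 0.54 to 34.0 FPKM, and fell by 0.71 with UD (SE 0.069). At its control level Src needed the groups given RANKL to pass the filter, and it is counted among the 6 higher with RANKL. Atp6v0d2, the proton pump subunit required for osteoclast fusion, rose by 5.35 (SE 0.055) and fell by 0.64 with UD (SE 0.043). Snx10, a sorting nexin needed for osteoclast function, rose by 0.90 (SE 0.050) and fell by 0.53 with UD (SE 0.049). Sh3pxd2b, the gene of the related adaptor Tks4, fell by 0.27 with UD (SE 0.053), unlike Sh3pxd2a, which was not called, and the difference between these genes was not tested. Adam15, a membrane protease, fell with RANKL (-1.35, SE 0.072), and its difference with UD was 0.10 (SE 0.074), not called. Ssb was the single one that rose with UD (0.16, SE 0.045), and with total counts 2 were called higher. Among all tested genes, total counts called 3348 higher in RANKL + UD against RANKL, compared with 2233 with TMM. Sh3pxd2b and Ssb were named after their values were seen.

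All 8 transcription regulators of these genes were tested. In RANKL + UD against RANKL 1 was higher and 7 were lower (all tested genes 18.6% and 20.2%), with a median of -0.55. In RANKL against control 4 were higher and 4 lower (all tested genes 27.3% and 30.2%). Nfatc1, the master regulator of osteoclast differentiation, was at 10.5 ± 0.88, 76.1 ± 1.3 and 57.5 ± 0.26 FPKM (SD, n = 3) in control, RANKL and RANKL + UD, a rise of 2.94 (SE 0.056) and a fall of 0.49 with UD (log2 fold change -0.49, SE 0.050). Fos, the AP-1 component needed early in differentiation, fell by 2.36 with RANKL (SE 0.055) and by a further 0.81 with UD (log2 fold change -0.81, SE 0.058). Bcl6, a repressor of Dcstamp and of other osteoclast genes, was lower by 0.53 with RANKL (log2 fold change -0.53, SE 0.063) and by 0.94 with UD (log2 fold change -0.94, SE 0.068). Prdm1, which encodes Blimp1, a repressor of Bcl6, had at most 3 counts in a control library and passed the filter through the groups given RANKL. Prdm1 is counted among the 4 higher with RANKL. Its level was 11.4 and 7.05 FPKM in RANKL and RANKL + UD, a fall of 0.77 with UD (log2 fold change -0.77, SE 0.089). Tal1 was the single regulator that rose with UD (0.53, SE 0.11), and was named after its value was seen.

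**Figure D5:**
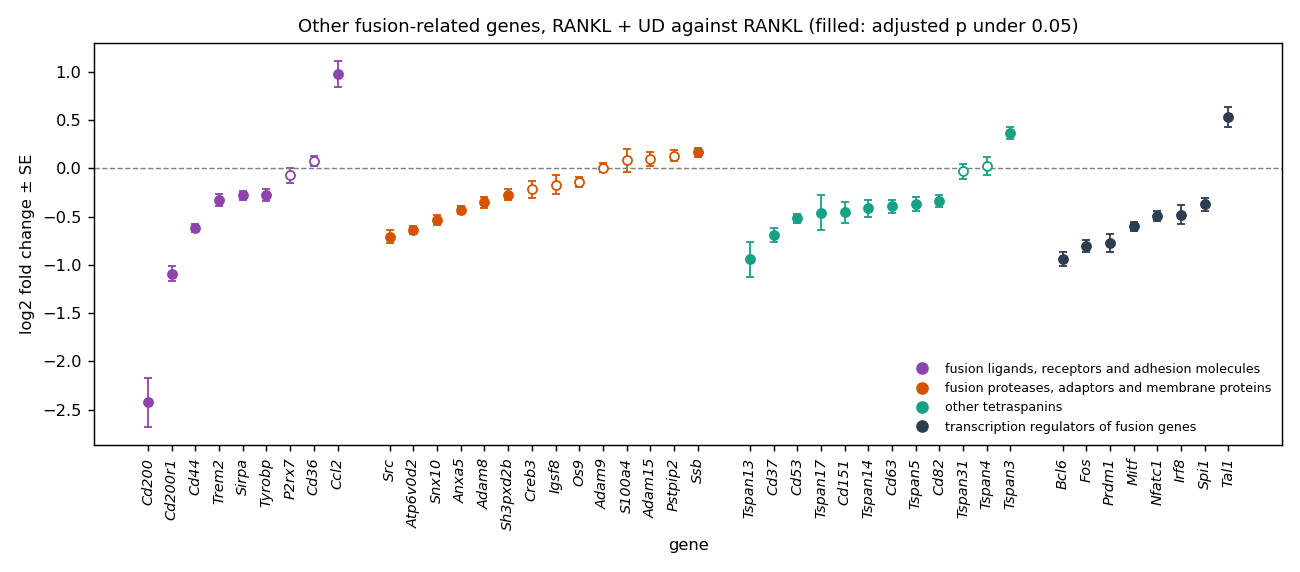
Log2 fold change ± SE (vertical axis) in RANKL + UD against RANKL for the tested genes of the 4 lists, ordered by value within each list; filled points have an edgeR adjusted p under 0.05. Most filled points lie below 0, and Ccl2 is the highest (0.98), while Cd200 (-2.42) passed the filter on low values through the RANKL libraries alone.

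The genes that varied most closely with the members were found by Pearson's correlation of log2(FPKM + 1) over the 9 libraries. These fall into 3 groups and share their treatment, so the values are a description. The correlation does not compare levels or the size of a change. For Dcstamp the closest genes were Serpinb6b (0.9997), Pmaip1 (0.999) and Plau (0.998), the last the gene of the urokinase plasminogen activator. Serpinb6b was at 1.93, 176.6 and 58.9 FPKM in control, RANKL and RANKL + UD, compared with 28.0, 124.9 and 86.2 for Dcstamp. For Ocstamp the closest genes were Rnf19b, Ank and Emp2 (0.998 to 0.999). Emp2, at 0.34 FPKM in control, needed the groups given RANKL to pass the filter. For Cd9 the closest genes were Gm41609 (0.992), Vegfa (0.989), which encodes an angiogenic growth factor, and Ghitm (0.987). Gm41609 was low, at 0.26, 2.72 and 0.41 FPKM in control, RANKL and RANKL + UD. It needed the RANKL libraries, where Cd9 was also high, to pass the filter, so its likeness depends on that choice. Vegfa was at 17.1, 28.6 and 17.6 FPKM in control, RANKL and RANKL + UD, high in RANKL and at nearly the same level in the other groups, as Cd9 was.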

How the data were processed

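Poly(A)-selected, strand-specific libraries of 3 groups of 3 were sequenced on an Illumina NovaSeq instrument. The authors deposited a count of reads per gene without normalization, and the FPKM, which they made from that count, the exonic length and the library total. The FPKM was recomputed from the deposited counts within rounding for 100% of genes in every library. The submitters' processing notes name mm10, and the aligner, counting tool and annotation release are not given in the sources used here. Of 52073 genes shared with a GRCm38 annotation, 1435 have the same coordinates, and 0 of the 6 members do, so coordinates are given as deposited and their build is not known.

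Each library's group came from its title, and the 18 value columns of the table were matched by name. The RANKL columns carry the name of the model group. Libraries of a group differed by more than sampling noise (chi-square per degree of freedom 3.00 to 9.75), so none was merged. The labels call them replicate biosamples, and p-values measure the spread between them. Replicate numbers were not taken as pairs.

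Counts were scaled by TMM and tested with edgeR 4.0.16 in R 4.3.3, the 3 groups being fitted together. P-values were adjusted by Benjamini-Hochberg over 11995 genes, those that reached 1 FPKM in 3 or more libraries. The SE was taken from the F statistic. Ratios within a library used log2(FPKM + 1) and exact permutation tests. Alternatives were RLE size factors, total counts, DESeq2 1.42.0, no filter, a CPM filter, limma 3.58.1 on log2(FPKM + 1) or log2(FPKM + 0.1), only the 6 libraries compared, a replicate block, each library left out, and for the ratios a pseudocount of 0.1 or counts + 0.5. The tests were tried on simulated counts. Python 3.11.15 and scipy 1.17.1 were used for the ratios.

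The members, the lists and the tests were chosen with earlier results of these data known. Genes named from a list are those with the largest called change in RANKL against control or in RANKL + UD against RANKL, and others are said to be named after their values were seen. Promoter sequences are RefSeq's, and 3 of 6 members matched. Dcstamp, Ocstamp and Sh3pxd2a did not. The level of 1 further gene on the list of other cell types is not reported here.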

Additional observations from a re-analysis of the deposited data

How the results depend on the processing

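Under the alternatives, 536 values kept their direction and call, or stayed near their size, while 6 changed sign, 6 changed in size and 4 passed the threshold that the reported value missed. Cd47 in RANKL against control was called with total counts (-0.18, edgeR adjusted p = 0.00169) and with limma on log2(FPKM + 1) and log2(FPKM + 0.1) (-0.18 and -0.18, adjusted p = 0.00590 and 0.00603), and ranged from -0.12 to -0.074 with a library left out, being called without RANKL replicate 3 (edgeR adjusted p = 0.0309). Sh3pxd2a in RANKL + UD against RANKL was never called and turned positive with total counts (0.078) and with limma (0.071 and 0.080), and ranged from -0.069 to 0.033 with a library left out. Genes called lower in RANKL + UD against RANKL numbered 1539 and 1488 with the limma settings compared with 2418. The ratio of Dcstamp to Ocstamp changed with the pseudocount, to -1.59 (RANKL minus control) and -1.28 (RANKL + UD minus control) with 0.1, and to -1.67 and -1.36 with counts + 0.5. The cause of the other changes was not tested. Ocstamp in control rests on the lowest counts of the 6 genes, which limits the precision of its rise. With the replicate number as a block, the log2 fold changes in RANKL + UD against RANKL were -0.62 for Dcstamp, -0.93 for Ocstamp, -0.65 for Cd9, -0.18 for Cd81, -0.43 for Cd47 and -0.01 for Sh3pxd2a, and the block changed no call of these genes. The numbers were not taken as pairs. Same-numbered libraries correlated at -0.030 to 0.097, with 0 of 9 pairs over 0.1. In both other groups, 4 of 9 libraries correlated best with their own number. The pairs numbered 1 had the highest correlations (0.097, 0.089 and 0.075), so these values do not settle whether numbers mark pairs.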
